A study of Mus musculus with 14 samples.

Results

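The aquaporins are the family of membrane channels that let water, and in some members glycerol, cross the lipid bilayer. The 8 genes described here (Aqp1, Aqp3, Aqp4, Aqp5, Aqp7, Aqp8, Aqp9 and Aqp11) were taken by gene symbol from the 23174 rows of the deposited expression table, and each matched 1 row. They are 8 of the 12 aquaporin genes that have a row; the other 4 are Mip (also called Aqp0), Aqp2, Aqp6 and Aqp12. The set was picked from earlier results on the FPKM values of these 14 libraries, so the levels below are a description. The tests place the members among all genes and are not separate evidence.

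The study compared mouse embryonic stem cells (ESCs) with and without the zinc finger transcription factor Zfp281 while they were driven toward extraembryonic endoderm (XEN) cells, the stem cells of the yolk sac lineage. There were 4 ESC lines of 129S1/SVImJ background, and each gave 1 library at each of 3 stages. WT3 has the genotype WT, KO3.34 and KO2.6 are Zfp281KO, and Rescue3.34 is KO3.34 with Zfp281 put back (Zfp281KO+Zfp281 Rescue). The titles call the second knockout 2.6, whereas its cell line field gives a different number. WT3 and Rescue3.34 together are called Zfp281-present below. Stage ESC is undifferentiated, in serum and LIF. Stage cXENp1 (passage 1) was taken in XEN medium after 48 hours of 0.01 µM all-trans retinoic acid with 10 ng/mL activin A, and cXENp3 (passage 3) came after an intervening passage on iMEF feeder cells. XENB1 (129S1 background) and XEN5 (129S1/SVImJ) are established WT XEN lines with 1 library each. Libraries of different lines stand in for replicates here, the genotypes WT and Rescue are 1 line each, and a p-value therefore measures the spread between these lines.

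Aquaporins assemble as tetramers in which each subunit forms its own pore. Classical members such as Aqp1, Aqp4, Aqp5 and Aqp8 are chiefly water channels, the aquaglyceroporins Aqp3, Aqp7 and Aqp9 also pass glycerol and other small solutes, and Aqp11 and Aqp12 are distant members found on intracellular membranes. In the early mouse embryo, aquaporins of the trophectoderm carry the water that fills the blastocyst cavity, and the yolk sac endoderm that XEN cells represent is an absorptive epithelium.

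Values were taken as FPKM, a unit the labels do not name (fragment numbers divided by transcript length and by library total), so levels of different genes can be compared per length. The table carries no read counts, its depth is unknown, and how precise a low value is could not be computed. Zfp281 ranged from 25.1 to 38.6 FPKM in the 6 libraries of WT3 and Rescue3.34, from 0 to 3.96 FPKM in the 6 of the knockout lines, and was 10.6 and 12.5 FPKM in XENB1 and XEN5. At stage ESC the descriptions for Rescue3.34, KO3.34 and WT3 open with the letters JH and those for the other 11 libraries with XH, so for most lines the ESC stage and these letters cannot be told apart. KO2.6 stood apart from the other ESC lines before any treatment. All 8 extraembryonic endoderm markers examined (Gata4, Gata6, Sox17, Sox7, Foxa2, Pdgfra, Dab2 and Cubn) reached 1 FPKM in its ESC library, with a summed level of 48.4 FPKM, against 0 or 1 of the 8 and sums of 1.03 to 5.93 FPKM in the other 3. A value of exactly 0 in this table may be a failed estimate. Hsp90ab1, an abundant chaperone gene, is listed at 0 in the 6 libraries of WT3 and Rescue3.34 and reaches 3624 FPKM elsewhere, and Eef1a1, a translation factor gene, is listed at 0 in 10 libraries. A gene at 0 is therefore only said to be listed at 0.

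The most abundant family member differed between stages and genotypes. Aqp3 was the most abundant aquaporin in all 4 ESC libraries, with 59.2% to 80.8% of the FPKM summed over the 12 genes, and again in WT3 and Rescue3.34 at cXENp1 and cXENp3 (61.4% to 90.2%). Aqp9 led in both knockout lines at cXENp1, with 61.3% in KO3.34 and 50.8% in KO2.6. Aqp8 led in both knockout lines at cXENp3, with 79.8% and 88.6%, and in XENB1 and XEN5, with 71.1% and 70.9%. The summed level was 13.5 to 36.8 FPKM in ESCs, 7.67 to 23.8 at cXENp1 and 32.3 and 24.2 in XENB1 and XEN5. At cXENp3 it was 21.7 FPKM for WT3, 36.7 for Rescue3.34, 229 for KO3.34 and 658 for KO2.6. The aquaglyceroporins together made up 59.3% to 81.0% of the sum in ESCs and at most 1.04% in knockout cXENp3 and XEN libraries.

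**Figure D1:**
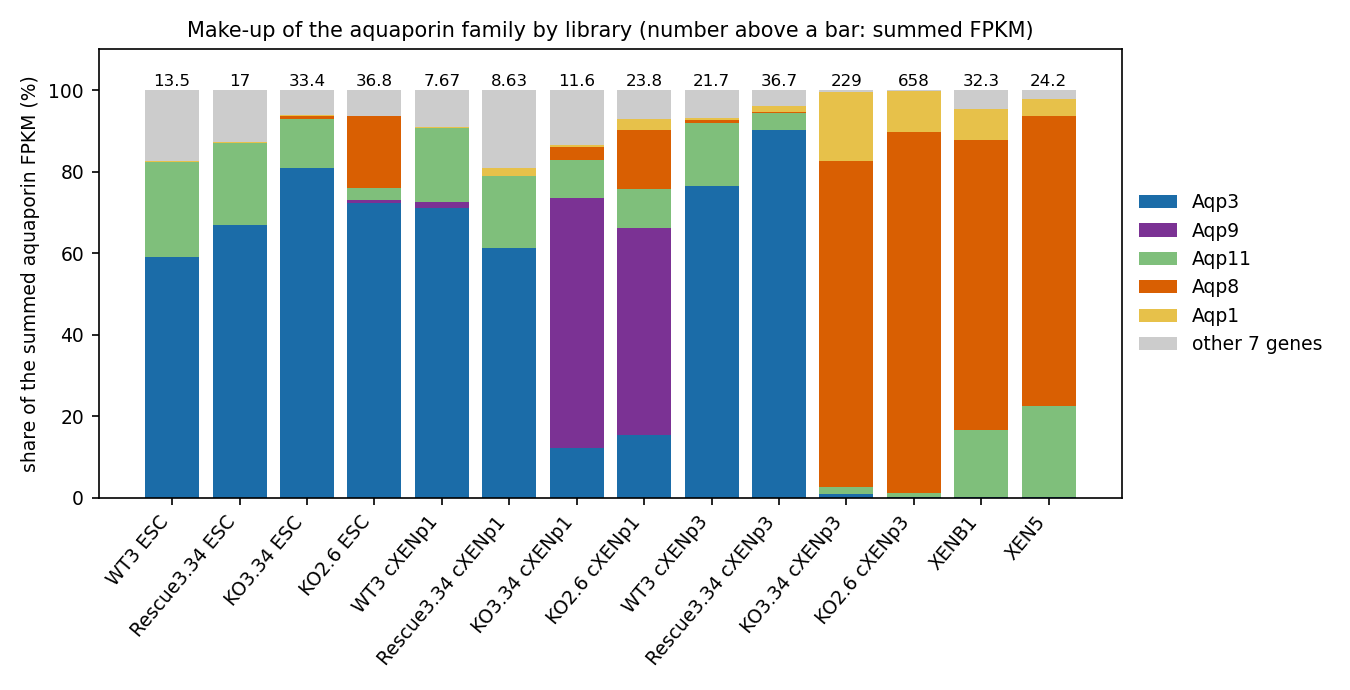
Share of the summed FPKM of the 12 aquaporin genes (vertical axis, %) taken by Aqp3, Aqp9, Aqp11, Aqp8, Aqp1 and the other 7 genes in each of the 14 libraries, with the summed FPKM above each bar. Aqp3 leads in ESC and Zfp281-present libraries, Aqp9 in knockout cXENp1, and Aqp8 in knockout cXENp3 and the XEN lines.

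The start sites of the 4 genes whose levels differed most lie in promoters of different base composition. The windows below run from 250 bases before to 50 bases after the start site in RefSeq's GRCm38.p6 annotation, and are shown because Aqp8 and Aqp1 were high in the same libraries, Aqp9 in others and Aqp3 in the reverse set. The deposited table is on mm9, whose coordinates differ. In each of the 4 the distance from the start site to the gene's other end equals the length of the table's locus (5710 bases for Aqp8, 12257 for Aqp1, 52631 for Aqp9 and 5460 for Aqp3). Capitals mark CG dinucleotides, the sites of DNA methylation in mammals.
Aqp8, chr7:123462044-123462343, plus strand: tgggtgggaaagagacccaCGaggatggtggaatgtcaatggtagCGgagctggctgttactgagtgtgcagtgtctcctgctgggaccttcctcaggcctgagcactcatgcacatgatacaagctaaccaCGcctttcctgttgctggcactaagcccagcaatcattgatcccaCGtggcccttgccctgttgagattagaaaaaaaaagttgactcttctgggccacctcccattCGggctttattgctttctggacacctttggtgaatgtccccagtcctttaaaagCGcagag
Aqp1, chr6:55336049-55336348, plus strand: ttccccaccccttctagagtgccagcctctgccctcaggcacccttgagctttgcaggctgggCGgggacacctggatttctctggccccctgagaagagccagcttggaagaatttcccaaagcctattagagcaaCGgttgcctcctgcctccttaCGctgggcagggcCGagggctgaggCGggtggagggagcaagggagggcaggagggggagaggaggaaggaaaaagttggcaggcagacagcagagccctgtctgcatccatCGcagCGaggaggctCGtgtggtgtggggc
Aqp9, chr9:71163240-71163539, minus strand: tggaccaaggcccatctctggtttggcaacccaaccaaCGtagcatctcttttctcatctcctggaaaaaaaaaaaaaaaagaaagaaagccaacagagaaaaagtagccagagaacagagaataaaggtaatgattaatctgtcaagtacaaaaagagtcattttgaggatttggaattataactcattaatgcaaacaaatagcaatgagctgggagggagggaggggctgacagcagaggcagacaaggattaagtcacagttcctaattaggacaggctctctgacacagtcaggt
Aqp3, chr4:41098134-41098433, minus strand: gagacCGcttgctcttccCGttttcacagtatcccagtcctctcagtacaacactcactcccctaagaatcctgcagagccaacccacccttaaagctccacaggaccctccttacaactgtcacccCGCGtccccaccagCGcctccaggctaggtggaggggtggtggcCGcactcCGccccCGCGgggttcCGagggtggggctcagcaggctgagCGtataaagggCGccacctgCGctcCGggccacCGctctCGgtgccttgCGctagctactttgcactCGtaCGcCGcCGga
The windows hold 6 CG dinucleotides for Aqp8, 8 for Aqp1, 1 for Aqp9 and 21 for Aqp3, against a median of 7 over 32851 promoter windows of this length. The GATA factor site, spelled AGATAA with its variant AGATAG and likewise TGATAA with its variant TGATAG, and the G-rich word GGGGAGGGG were searched on both strands. No searched word holds another. Neither occurs in these 4 windows, while 29.8% of all windows hold a GATA word and 6.37% the G-rich word. A second Aqp9 start site, further into the gene and not the one that matches the table, has 3 GATA words in its window. By symbol, 7 of the 8 members matched a window; Aqp4 did not.

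Aqp8, a water channel that also passes ammonia and hydrogen peroxide, was the aquaporin with the highest single value (XLOC_018386, mm9 chromosome 7, 130605808 to 130611517). In KO2.6 it had 6.47 FPKM in ESCs, 3.43 at cXENp1 and 583 at cXENp3. In KO3.34 the values were 0.292, 0.363 and 182 FPKM. WT3 and Rescue3.34 are listed at 0 at both earlier stages, and at cXENp3 their levels were 0.174 and 0.125 FPKM. XENB1 and XEN5 had 23.0 and 17.2 FPKM. The 2 knockout cXENp3 libraries were thus the highest, and both XEN lines came next. All Zfp281-present libraries lay below every knockout library. However, 4 of their values are listed zeros, and the earlier KO3.34 values lie under 1 FPKM. The share of all genes with such an order was not computed. At cXENp3 Aqp8 ranked 122nd of all rows by FPKM in KO2.6 and 479th in KO3.34, against 3955th in XENB1 and 4971st in XEN5.

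The 4 values of exactly 0 of Aqp8 fill both Zfp281-present libraries at ESC and both at cXENp1. Hsp90ab1 is listed at 0 in the same 4 libraries, so absence and a failed estimate cannot be told apart there. No ratio of FPKM is given against these libraries, and log2 differences from fits that hold them rest in part on these zeros. The cXENp3 comparison contains no value of 0. The KO2.6 libraries with 6.47 and 3.43 FPKM of Aqp8 were also those with raised endoderm markers: at cXENp1 the 8 markers summed to 483 FPKM in KO2.6 and to 38.6 to 49.2 FPKM in the other 3 lines. Their part in the Aqp8 values was not tested. At cXENp3 the same 8 markers summed to 1167 FPKM for KO3.34, 941 for KO2.6, 13.5 for Rescue3.34 and 5.55 for WT3. In bulk RNA, more cells of a type and more RNA per cell cannot be told apart.

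Aqp1, the water channel of red cells, kidney tubules and many capillaries, followed the same libraries at a lower level (XLOC_016539, chromosome 6, 55286293 to 55298549). At cXENp3 it had 65.9 FPKM in KO2.6 and 38.5 in KO3.34, against 0.133 in WT3 and 0.556 in Rescue3.34. XENB1 and XEN5 had 2.52 and 1.00 FPKM. In ESCs it was listed at 0 in KO2.6 and had 0.0425 to 0.0839 FPKM in the other 3 lines, and at cXENp1 it ranged from 0.0147 to 0.655 FPKM. Its high values were confined to the 2 knockout cXENp3 libraries among the 14, and the XEN lines stood between these and the rest. Across the 14 libraries Aqp1 and Aqp8 had a Pearson r of 0.93 on log2(FPKM + 1), a description that rests on the 4 knockout cXENp3 and XEN libraries.

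Markers of cells that carry Aqp1 elsewhere were read in the same libraries. None of the erythroid genes Hbb-b1, Hba-a1, Klf1 and Alas2 reached 1 FPKM in any library. Of 5 endothelial genes read at cXENp3, Cdh5 had 45.3 FPKM in KO2.6 and 16.0 in KO3.34, and Tek 40.0 and 18.6, while Pecam1 had 0.840 and 1.84, Kdr 1.28 and 1.12, and Emcn 0.274 and 0.0987 FPKM. In WT3 and Rescue3.34 at cXENp3, Cdh5 had 0.0133 and 0.142 FPKM, Tek 1.42 and 1.08, and Kdr 0.0470 and 0.319. Emcn had 0 and 0.229 FPKM there. Pecam1, at 29.7 and 15.7 FPKM, made up most of their sums, and it ranged from 11.8 to 38.8 FPKM in ESCs. The 5 endothelial genes summed to 87.7 FPKM for KO2.6, 37.6 for KO3.34, 31.1 for WT3 and 17.5 for Rescue3.34. These 5 genes summed to 19.8 and 37.6 FPKM in XENB1 and XEN5. Their part in the Aqp1 values was not tested. The 8 fibroblast genes, read because the cells had been on feeders, summed at cXENp3 to 347 FPKM for KO2.6, 272 for KO3.34, 35.3 for WT3 and 1252 for Rescue3.34. Of these 8 genes 7 reached 1 FPKM in each knockout line, 8 in Rescue3.34 and 5 in WT3, where Lum is listed at 0. The 8 genes summed to 618 and 542 FPKM in XENB1 and XEN5. Their part in the Aqp1 and Aqp8 values was not tested.

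**Figure D2:**
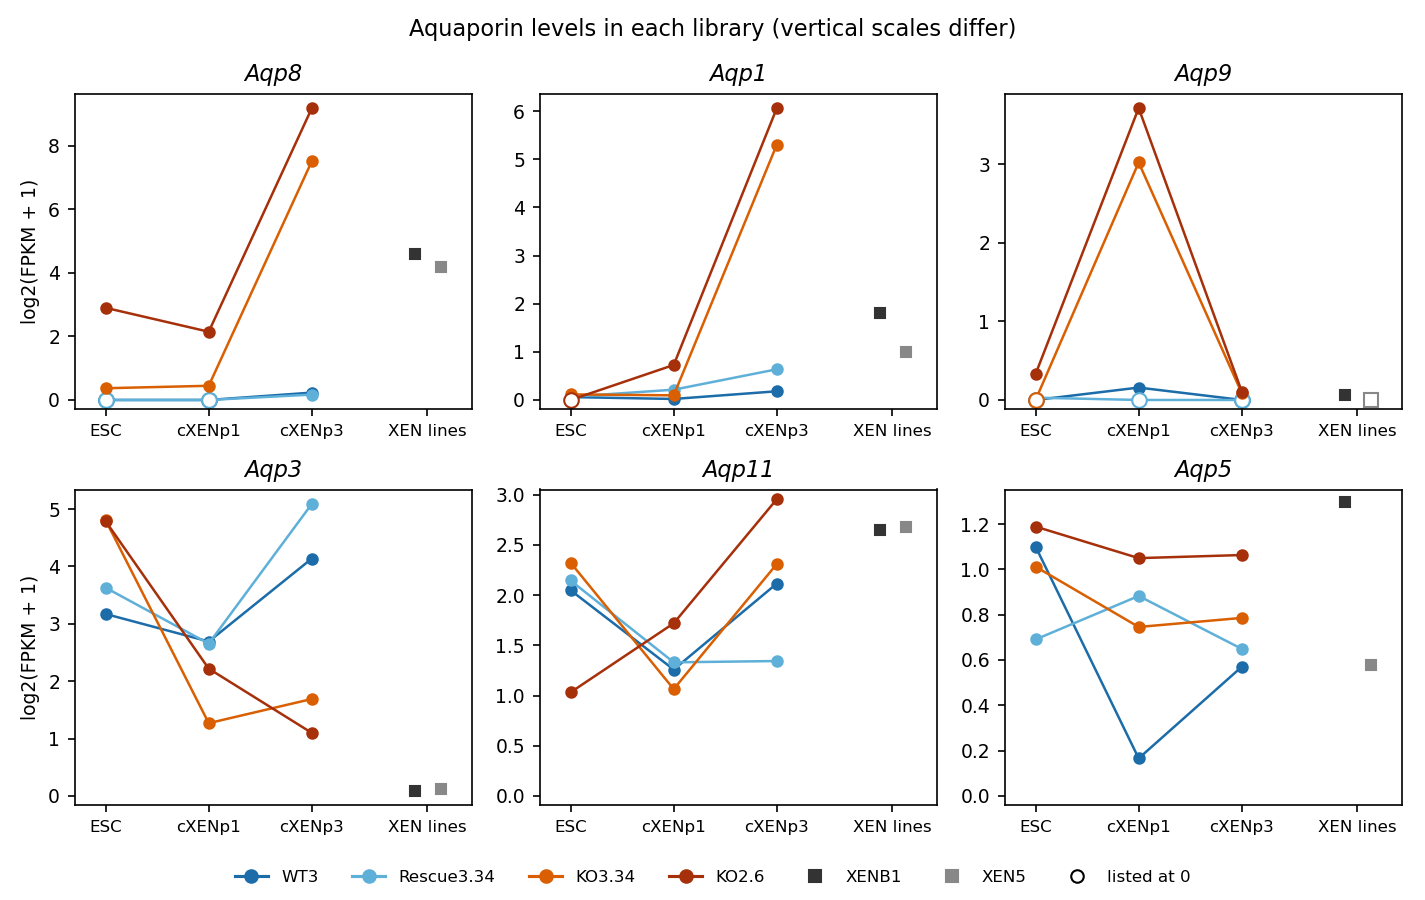
Level of the 6 members that reached 1 FPKM, as log2(FPKM + 1) on the vertical axis (scales differ between panels), for the 4 lines at the 3 stages (circles joined by line) and for the 2 XEN lines (squares); open symbols are listed at 0. Aqp8 and Aqp1 are highest in the 2 knockout lines at cXENp3, Aqp9 peaks in the same lines at cXENp1, and Aqp3 is low in them at both differentiated stages and higher in WT3 and Rescue3.34.

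Aqp9, an aquaglyceroporin known from liver and leukocytes, was seen at a single stage (XLOC_021811, chromosome 9, 70958466 to 71011096). At cXENp1 KO2.6 had 12.1 FPKM and KO3.34 7.12, against 0.116 in WT3 and a listed 0 in Rescue3.34. At cXENp3 the knockout lines were back at 0.0770 and 0.0620 FPKM and both Zfp281-present lines are listed at 0. The remaining libraries had at most 0.256 FPKM, in KO2.6 ESCs. The groups at cXENp1 did not overlap, and in both knockout lines the value there was far above those at the other 2 stages. Groups of 2 libraries can fail to overlap by chance. The share of all genes whose groups did not overlap was not computed, here or for the members below.

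Aqp3, the aquaglyceroporin of skin and other barrier epithelia that also admits hydrogen peroxide, ran the other way (XLOC_014384, chromosome 4, 41039757 to 41045216). In ESCs it had 26.6 FPKM in KO2.6 and 27.0 in KO3.34, above the 8.01 FPKM of WT3 and 11.4 of Rescue3.34. At cXENp1 the order was reversed, with 3.65 and 1.41 FPKM in the knockout lines against 5.46 for WT3 and 5.30 for Rescue3.34. At cXENp3 it was 1.14 FPKM for KO2.6 and 2.23 for KO3.34, below the 16.6 FPKM of WT3 and 33.1 of Rescue3.34. XENB1 and XEN5 had the lowest values, 0.0652 and 0.0863 FPKM. The groups with and without Zfp281 did not overlap at any of the 3 stages, and the sign of their difference changed after the ESC stage. Groups of 2 libraries can do so by chance, and the share of all genes that did was not computed. In the fits below, the Aqp3 difference was called at cXENp3 but not in ESCs or at cXENp1 (limma adjusted p 0.0874 and 0.412). The change of this difference between the groups from ESC to cXENp1 was not called either (interaction, limma adjusted p 0.236). Nor was the change of the Aqp3 level from ESC to cXENp1 over the 4 lines (limma adjusted p 0.10). ESCs had 19.1 times the cXENp1 level in KO3.34, 7.29 times in KO2.6, 2.15 times in Rescue3.34 and 1.47 times in WT3. The cXENp3 level was 6.24 times the cXENp1 level in Rescue3.34 and 3.04 times in WT3. Pluripotency markers (5 genes) were also higher in these lines at cXENp3. There they summed to 65.9 FPKM for KO2.6, 328 for KO3.34, 1631 for Rescue3.34 and 2654 for WT3. In ESCs the knockout lines had the lower sums, unlike Aqp3: 2116 FPKM for KO2.6 and 2323 for KO3.34, against 2565 for Rescue3.34 and 2577 for WT3. The 5 markers summed to 58.8 to 105 FPKM at cXENp1, and to 13.1 and 0.159 in XENB1 and XEN5. Their part in the Aqp3 values was not tested. Trophoblast markers (5 genes), read because trophoblast carries Aqp3, summed to 0.589 to 5.86 FPKM over all 14 libraries.

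Aqp11, which resides in the endoplasmic reticulum and whose loss causes kidney cysts in mice, was the only member at 1 FPKM or more in all 14 libraries (XLOC_019223, chromosome 7, 104874889 to 104886757). It ranged from 1.04 FPKM in KO2.6 ESCs to 6.75 in KO2.6 at cXENp3, with a median of 3.23. XENB1 and XEN5 had 5.25 and 5.39 FPKM. At cXENp3 the knockout lines (6.75 and 3.96 FPKM) lay above WT3 (3.33) and Rescue3.34 (1.54), while at ESC and cXENp1 the groups overlapped.

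Aqp5, the water channel of salivary, tear and airway glands, was low throughout (XLOC_006889, chromosome 15, 99421459 to 99425260). It ranged from 0.122 FPKM in WT3 at cXENp1 to 1.46 in XENB1, with 6 libraries at 1 FPKM or more. XENB1 and XEN5 differed from each other, at 1.46 and 0.493 FPKM, and the groups of each stage overlapped except at cXENp3. Aqp4, the main water channel of astrocytes, and Aqp7, the glycerol channel of fat cells, never reached 0.1 FPKM: Aqp4 had at most 0.0360 and Aqp7 at most 0.0980 FPKM, and they are listed at 0 in 8 and 6 libraries. The 4 family genes outside the 8 also stayed below 1 FPKM, with highest values of 0.986 for Mip, 0.804 for Aqp6 and 0.230 for Aqp2, and Aqp12 is listed at 0 in every library. No locus of the 12 overlaps another row of the table.

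The fits across all genes used log2(FPKM + 1), a scale that understates the change of low genes, and called a gene at an adjusted p under 0.05 (limma, Benjamini-Hochberg). Genes entered where at least 2 fitted libraries reached 1 FPKM. Differences are on that log2 scale, first group minus second. Of the 8 members 6 passed in the fits over the course and 5 in XEN against ESC, and Aqp4 and Aqp7 passed in none. Aqp1, Aqp8 and Aqp9 passed only through libraries in which they were high, so a difference in them was built into their passing.

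Established XEN lines, which are not part of the course, were compared with the 4 ESC libraries as a reference for XEN cells. Calls covered 41.9% of 12372 genes (higher 22.2%, lower 19.7%) and 3 of the 5 members tested. Aqp8 was higher in XEN by 3.57 (SE 0.79, adjusted p 0.00858), Aqp1 was higher by 1.35 (SE 0.26, adjusted p 0.00496) and Aqp3 was lower, with a difference of -3.99 (SE 0.50, adjusted p 0.00065). Aqp11 differed by 0.77 (SE 0.38, limma adjusted p 0.141) and Aqp5 by -0.06 (SE 0.28, limma adjusted p 0.88). The Aqp8 difference rests in part on the listed zeros of WT3 and Rescue3.34 in ESCs, which may be failed estimates. Aqp1 entered this fit only through the XEN libraries. The Aqp8 call was lost without XEN5 (3.77, adjusted p 0.0557) or XENB1 (3.37, adjusted p 0.0726), and it held without KO2.6 (4.26, adjusted p 3.39e-05). With the opening letters of the descriptions as a term, so that KO2.6 alone stood for ESC against XEN, the difference was 1.48 (adjusted p 0.0158) and Aqp11 was called too. With a pseudocount of 0.1 the differences were 5.64 for Aqp8, 3.60 for Aqp1 and -6.52 for Aqp3, all called. When XEN5 or XENB1 was left out, Aqp1 had 1 library at 1 FPKM and left the tested genes. With every gene above 0 kept, a setting added after the data were seen, its differences were 1.75 and 0.94. XEN then held 1 library, and the spread came from ESC libraries at 0 to 0.0839 FPKM, so no call is drawn.

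Stage cXENp1 was set against ESC within the 4 lines. The 2 stages differ in the inducing treatment, medium and passage and, for most lines, in the opening letters of the descriptions. These cannot be told apart here. Calls covered 28.5% of 13191 genes (higher 14.7%, lower 13.8%) and 0 of 6 members (limma), with 2 at an unadjusted p under 0.05. These were Aqp3, with a difference of -1.89 (SE 0.79, limma adjusted p 0.10), and Aqp9, with 1.63 (SE 0.62, limma adjusted p 0.0736). The fit also held the cXENp3 libraries of the 4 lines, so its spread takes in how far the lines differed there. Aqp8 (-0.17, SE 1.27) and Aqp1 (0.20, SE 0.98) had wide SEs in it. For them, the lack of a call does not describe ESC and cXENp1 alone. Without KO2.6 Aqp11 was called, and no other member. With the opening letters of the descriptions as a term, 439 genes were called instead of 3760, and no member.

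Knockout and Zfp281-present lines were compared within each stage. In ESCs calls covered 1.97% of 13191 genes (higher in the knockout lines 1.05%, lower 0.917%) and 0 of 6 members, with 1 at an unadjusted p under 0.05: Aqp3, higher in the knockout lines by 1.40 (SE 0.39, adjusted p 0.0874). Without KO3.34 Aqp8 passed the threshold, but from KO2.6 alone against libraries listed at 0, so no call is drawn. At cXENp1 calls covered 0.485% (higher 0.364%, lower 0.121%) and 1 of 6 members, Aqp9, higher by 3.29 (SE 0.25, limma adjusted p 0.000395). Aqp9 entered the fit only through the 2 knockout libraries of this stage, so a difference was built into its entry. Its call was lost without WT3 (3.37, adjusted p 0.0961) or Rescue3.34 (3.21, adjusted p 0.122), and in a fit of the 4 cXENp1 libraries alone (adjusted p 0.0867). With a pseudocount of 0.1 the difference was 5.999 (limma adjusted p 0.0159). Rescue3.34 is listed at 0 for Aqp9 at cXENp1, so the Aqp9 difference rests in part on a value that may be a failed estimate. Without KO2.6 or KO3.34 Aqp9 had 1 library at 1 FPKM and left the tested genes. With every gene above 0 kept, the differences were 2.94 and 3.63. The knockout group then held 1 library with no spread of its own, so no call is drawn.

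At cXENp3 calls covered 41.9% of genes (higher in the knockout lines 22.9%, lower 19%) and 3 of 6 members. Aqp1 and Aqp8 entered this fit only through knockout libraries, so a difference was built into their entry. Aqp8 was higher in the knockout lines by 8.15 (SE 0.80, adjusted p 0.000175), Aqp1 was higher by 5.28 (SE 0.31, adjusted p 1.16e-05), and Aqp3 was lower, with a difference of -3.22 (SE 0.39, adjusted p 0.000387). Aqp11 differed by 0.90 (SE 0.44, adjusted p 0.126), Aqp5 by 0.31 (SE 0.28, adjusted p 0.397) and Aqp9 by 0.10 (SE 0.25, adjusted p 0.785). Without KO2.6, Aqp8 and Aqp1 had 1 library at 1 FPKM and left the tested genes, as did Aqp1 without KO3.34. With every gene above 0 kept, the differences without KO2.6 were 7.32 for Aqp8 and 4.90 for Aqp1, and Aqp1 without KO3.34 differed by 5.65. The lone knockout library has no spread of its own in these fits. The SE of Aqp8 fell from 0.80 to 0.10, set largely by Zfp281-present libraries with at most 0.174 FPKM of it. No call is drawn from these fits. Without KO3.34 Aqp11 passed the threshold as well, but from KO2.6 alone, so no call is drawn for it either.

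**Figure D3:**
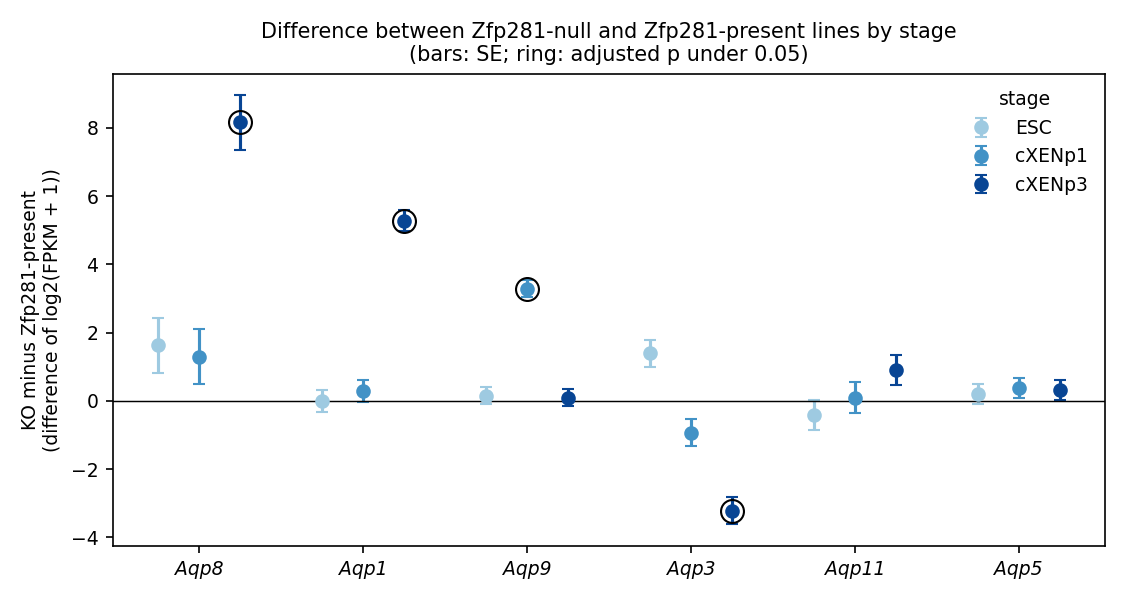
Difference between knockout and Zfp281-present lines in log2(FPKM + 1) (vertical axis) for the 6 members tested, by stage, with SE bars from the limma fit and rings where the adjusted p was under 0.05. Aqp8 (8.15) and Aqp1 (5.28) lie far above 0 at cXENp3, Aqp9 (3.29) at cXENp1, and Aqp3 moves from 1.40 in ESCs to -3.22 at cXENp3.

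Whether the difference between the lines changed from ESC was tested as an interaction, with no term for line. A line's libraries thus count as independent here, and Rescue3.34, made from KO3.34, counts as separate from it. At cXENp3 22.6% of genes had one (13.7% higher and 8.85% lower) and 3 of 6 members: Aqp8 by 6.52 (SE 1.14, adjusted p 0.00667), Aqp1 by 5.28 (SE 0.44, adjusted p 0.000543) and Aqp3 by -4.62 (SE 0.55, adjusted p 0.00194). The Aqp8 value rests in part on the listed zeros of the ESC libraries, and Aqp1 and Aqp8 again entered only through knockout libraries. Without WT3 none of the 3 was called (limma adjusted p 0.141 for Aqp8, 0.0807 for Aqp1 and 0.0848 for Aqp3), and without Rescue3.34 Aqp1 alone was. Without KO2.6 Aqp3 was called, and Aqp8 and Aqp1 left the tested genes. With every gene above 0 kept, Aqp8 and Aqp1 gave 6.95 and 4.84, from 1 knockout library per stage, and no call is drawn. At cXENp1 0.0379% of genes had an interaction, all of them higher, with Aqp9 among them (3.14, SE 0.36, limma adjusted p 0.0184) as 1 of 6 members. The Aqp9 value rests in part on listed zeros, of Rescue3.34 at cXENp1 and of WT3 and KO3.34 in ESCs. Aqp9 was tested only through the knockout cXENp1 libraries. The Aqp9 call was lost with a pseudocount of 0.1 (5.22, adjusted p 0.251), after quantile normalization (adjusted p 0.0526), without WT3 (adjusted p 0.929) and without Rescue3.34 (adjusted p 0.696). Aqp3 had a cXENp1 interaction of -2.33 (SE 0.55, adjusted p 0.236).

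Knockout cells at cXENp3 were set against the established XEN lines. Calls covered 4.12% of 13386 genes (higher 2.64%, lower 1.48%) and 2 of 6 members, both higher in the knockout cells: Aqp1 by 4.28 (SE 0.35, adjusted p 9.09e-05) and Aqp8 by 3.97 (SE 0.77, adjusted p 0.0177). Aqp1 was 15.3 to 65.7 times and Aqp8 7.94 to 33.9 times as high in FPKM, over the 4 pairs of a knockout with a XEN library. The endoderm markers, at 941 and 1167 FPKM in the knockout libraries, summed to 1026 FPKM in XENB1 and 1410 in XEN5. Aqp3 differed by 1.29 (SE 0.38, adjusted p 0.0869), Aqp9 by 0.07 (SE 0.24, adjusted p 0.918), Aqp11 by -0.03 (SE 0.42, adjusted p 0.984) and Aqp5 by -0.01 (SE 0.31, adjusted p 0.993). The Aqp8 call was lost with a pseudocount of 0.1 (adjusted p 0.0721) and without WT3, Rescue3.34, XEN5 or XENB1 (adjusted p 0.0999, 0.0995, 0.101 and 0.0549), while Aqp1 was called in each of these.

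Genes that work with aquaporins were read from lists of glycerol enzymes, cell volume and tonicity genes, the sodium-potassium ATPase with its FXYD subunits, and aquaporin anchoring partners. The sodium-potassium ATPase builds the ion gradients that water follows. At cXENp3, 3 of 10 tested genes of its list were higher and 3 lower in the knockout lines, against 22.9% and 19% of all genes, with a median difference of 0.16 against 0.01 over all genes. The beta subunit gene Atp1b2 was lower, with a difference of -3.60 (SE 0.51, adjusted p 0.000766), and it was already lower in ESCs (adjusted p 0.0285). The regulatory subunit Fxyd3 was at 365 FPKM in KO2.6 and 233 in KO3.34 (limma adjusted p 0.000114). It is listed at 0 for WT3 and Rescue3.34, and reached 259 FPKM in XEN5 and 205 in XENB1. Hsp90ab1 is listed at 0 in the same WT3 and Rescue3.34 libraries, so the Fxyd3 difference rests on values that may be failed estimates. Fxyd5 was higher by 1.26 (adjusted p 0.0209) and Fxyd6 lower, with -4.20 (adjusted p 0.0199).

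Of 9 glycerol genes tested at cXENp3, 4 were higher and 1 lower in the knockout lines, against 22.9% and 19% of all genes, with a median of -0.02 (all genes 0.01). Mgll, which frees glycerol from monoacylglycerol, was higher by 1.89 (SE 0.40, adjusted p 0.00479), Gpam, which starts glycerolipid synthesis, by 0.83 (adjusted p 0.0274) and Gpd1l by 0.78 (adjusted p 0.0202). Lipe, the hormone-sensitive lipase, was lower with -1.05 (adjusted p 0.0178). Gyk, the glycerol kinase that traps glycerol in the cell, was not called and had 2.98 FPKM in KO3.34 against 4.80 in Rescue3.34. Mgll was also higher in XEN than in ESC lines, by 2.36 (adjusted p 0.00034), and Lipe lower, with -1.50 (adjusted p 0.00285).

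Of 13 volume and tonicity genes, 3 were higher and 2 lower in the knockout lines at cXENp3, which is near the 22.9% and 19% of all genes, with a median of 0.30 (all genes 0.01). The subunits of the volume-regulated anion channel did not move as 1 group: Lrrc8c was higher by 1.96 (adjusted p 0.00313) and Lrrc8a by 1.13 (adjusted p 0.00402), whereas Lrrc8d was lower with -0.98 (adjusted p 0.0111). Stk39, a kinase that responds to cell shrinkage, was higher by 1.34 (adjusted p 0.0208) and the sorbitol-forming enzyme Akr1b3 lower with -1.22 (adjusted p 0.0435). At cXENp1 the kinase Sgk1 (1.78, adjusted p 0.0395) and the taurine carrier Slc6a6 (1.36, adjusted p 0.039) were higher in the knockout lines. Of 7 anchoring partners at cXENp3, 1 was higher and 3 lower, against 22.9% and 19% of all genes, with a median of -0.38 (all genes 0.01). The dystrophin complex genes Dmd (-1.73, adjusted p 0.00537) and Dtna (-1.30, adjusted p 0.00835), which help hold Aqp4 at astrocyte membranes, were among the lower genes.

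The genes most like each member were found by Pearson r of log2(FPKM + 1) over the 14 libraries, among 13369 genes. For Aqp8 they were Tcf23 (0.99), Pi16 (0.98) and Wars (0.98), and for Aqp1 Lce1h (0.99), Apba1 (0.98) and Slc6a2 (0.97). For Aqp9 they were H2-M10.4, Snora21 and Gm11554 (0.99 each), for Aqp3 Gm13154 (0.96), Zfp808 (0.96) and Kcns3 (0.94), and for Aqp11 Sil1 (0.95), 1110007C09Rik (0.93) and Arsa (0.92). Aqp5 had lower values, with 0.83 for Ublcp1 and Rnps1 and 0.81 for Arpc3. The 14 libraries share lines and stages, and r for Aqp1, Aqp8 and Aqp9 rests on the few libraries in which these genes are high.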

How the data were processed

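RNA-seq of polyA libraries (paired reads, HiSeq4000) was deposited as 1 table of 14 libraries. STAR 2.5.3, Cufflinks 2.1.1 and the build mm9 are named in the submitters' processing notes; annotation, filters and strand setting are not given in the sources used here. The deposited values were taken as FPKM from their form, since neither labels nor header names the unit; column sums differ from 424406 to 718138, and with no counts no interval or detection limit was computed. Coordinates are those of the table, counted from 1. Values were analysed as log2(FPKM + 1) in limma 3.58.1 (R 4.3.3; lmFit, eBayes with trend) over genes at 1 FPKM or more in at least 2 fitted libraries; a call is a Benjamini-Hochberg adjusted p under 0.05 over all genes tested, and every adjusted p printed comes from limma. cXENp1 against ESC had line as a block, because a line's libraries come from the same cells, and its fit also held the cXENp3 libraries. Comparisons within a stage and interactions pooled the spread of 6 groups of 2 libraries, and knockout cXENp3 against XEN used 7 such groups. These fits had no term for line, so libraries of a line, and those of KO3.34 and Rescue3.34, were treated as independent. The code was tested on simulated data. Members and gene lists were chosen with earlier results of these data known. Named are all members, the other family genes by level, up to 3 called genes per list and direction (Gyk was added with its values known; some list genes are not reported here), and the 3 genes most like each member. Alternatives were a pseudocount of 0.1, no filter on low values, quantile normalization, eBayes without trend, a term for the opening letters of the descriptions, no block, 1 stage alone, and leaving out each line.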

Additional observations from a re-analysis of the deposited data

Results flagged for a closer look

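Among the 4 ESC libraries KO2.6 lay far from the others in Aqp8 (6.47 FPKM, with a gap to the nearest library of 0.955 of the whole range) and in Aqp9 (0.256 FPKM, gap 0.92). At cXENp1 KO2.6 again lay apart in Aqp8 (3.43 FPKM, gap 0.894). Chance puts about 1 of 20 groups past the limit used (Dixon's test), and the Aqp8 values of the nearest libraries are at or near a listed 0. The difference between knockout and Zfp281-present lines changed with stage, by the interaction test, for Aqp8 (6.52), Aqp1 (5.28) and Aqp3 (-4.62) at cXENp3 and for Aqp9 (3.14) at cXENp1.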

How the results depend on the processing

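The 13 log2 differences of called members took 113 values under the alternatives planned: none changed sign, 94 stayed past the threshold and 19 did not, 15 of these with a line left out. In 12 further cases the member left the tested genes when a line was left out. With every gene above 0 kept as well, a setting chosen after seeing the data, none of these 12 differences changed sign. In each case the group that lost the line held 1 library, so passing the threshold there would say little. After quantile normalization 1 member, Aqp5, was called in cXENp1 against ESC instead of 0, and 0 instead of 1 in the cXENp1 interaction, as with a pseudocount of 0.1; the 4 cXENp1 libraries alone gave 0 instead of 1. With no replicate block cXENp1 against ESC gave 0, as with it. With 1 line left out, the count ranged from 1 to 3 in XEN against ESC, 0 to 1 in cXENp1 against ESC, 0 to 1 in knockout against Zfp281-present ESCs, 0 to 1 at cXENp1, 1 to 3 at cXENp3, 0 to 0 in the cXENp1 interaction, 0 to 3 in the cXENp3 interaction and 1 to 2 in knockout cXENp3 against XEN. Without KO3.34 Aqp9 left the tested genes at cXENp1. The member counted there and in ESCs was Aqp8, from KO2.6 alone against libraries listed at 0, so no call is drawn. With a pseudocount of 0.1 Aqp3 took the place of Aqp8 in knockout cXENp3 against XEN, and with a term for the descriptions' opening letters Aqp11 joined the calls of XEN against ESC. Counts over all genes moved more: cXENp1 against ESC had 3760 calls, 439 with that term and 1244 to 3749 with a line left out; XEN against ESC 5181 and 2098 to 6235; the ESC comparison of genotypes 260, 160 after quantile normalization, 21 with the term, 2 alone and 1 to 1993; that at cXENp1 64, 19 with a pseudocount of 0.1, 136 without the filter, 100 after quantile normalization, 3 alone and 4 to 638; that at cXENp3 5528, 3487 alone and 1057 to 6150; the cXENp1 interaction 5, 1 with the pseudocount, 26 without the filter, 3 after quantile normalization and 1 to 52; the cXENp3 interaction 2975 and 1 to 4300; knockout cXENp3 against XEN 551 and 87 to 881. The cause of these changes was not tested, except where a member left the tested genes. Where a line is left out, its lone partner is assumed to vary like the other groups. Unknown depth limits every value below about 1 FPKM.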
